A study of Mus musculus with 6 samples.

Results

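The genes described here encode the MHC class II antigen presentation machinery: the chains H2-Ab1, H2-Aa and H2-Eb1, the peptide-loading chains H2-DMa, H2-DMb1 and H2-DMb2, the chaperone Cd74 and the transcriptional coactivator Ciita. They were chosen by symbol from 14868 genes measured in T helper 2 (Th2) cultures, and 6 of the 8 had a row in the deposited table. H2-Aa and Ciita had none and were not analysed here. The rule thus used measured values through the presence of a row, since the table held only genes with at least 61 estimated reads over the 6 libraries. Of the genes with a row, H2-Eb1 lay nearest to that floor with 251 reads and H2-DMb1 was next with 314. The set was also proposed with earlier results of the same contrast known, so its values are descriptions and its calls, taken from a fit of all genes, support nothing about the set as a whole.

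The libraries came from naïve CD4+ T cells of wild-type (WT) mice and of Ikzf4-/- mice, which lack the gene of the zinc finger transcription factor Eos, all of C57BL/6J background. Every culture received anti-CD3 (5 µg/mL) and anti-CD28 (2 µg/mL) bound to the plate, 10 ng/mL IL-4 and 10 µg/mL of an antibody against interferon gamma, and was collected at 72 h. There were 3 libraries of total RNA per genotype, and the labels name no animal, age, sex, batch or method of cell purification, nor how the Ikzf4 allele was made. Because nothing shows that replicates came from separate animals or cultures, p-values measure the spread between these libraries, which may be technical. Estimated depth was 34701390 to 40604346 reads per library. Ikzf4 itself was at 483 to 756 normalized reads in WT and at 10.5 to 38.2 in Ikzf4-/- libraries, so all 6 libraries matched their labels. The first principal component over all tested genes held 40.2% of the variance. WT replicates 1 to 3 lay at -41.3, -12.5 and -5.26 on it, and Ikzf4-/- replicates 1 to 3 at 11.1, 17.1 and 30.8. It thus separated the genotypes, with WT replicate 1 and Ikzf4-/- replicate 3 at its ends. WT replicate 1 stood apart from the other WT libraries, and the calls of H2-Ab1 and H2-DMb2 are also given without it. The T cell markers Cd4 and Cd3e were at 25135 to 28266 and 7554 to 8699 normalized reads across the 6 libraries.

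MHC class II molecules show peptides from endosomes to CD4+ T cells. An alpha and a beta chain pair in the endoplasmic reticulum with the invariant chain, encoded by Cd74, which blocks the groove until endosomal proteases remove it, and the DM dimer of H2-DMa with a DMb chain then exchanges the remaining fragment for antigenic peptide. In B cells, dendritic cells and macrophages these genes are driven together by the coactivator CIITA, which joins RFX, CREB and NF-Y proteins on a shared promoter module of X and Y boxes. Mouse T cells, unlike activated human T cells, are known for making little class II of their own, and C57BL/6 mice make no complete E molecule because their E alpha gene is defective.

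The promoter module is shown for the called gene H2-DMb2 and for H2-Eb1 and H2-DMa, which were not called. The windows searched differ in whether these letters are present. RefSeq promoter windows of GRCm38.p6 were found for 5 of the 8 genes, H2-Aa, H2-Eb1, H2-DMa, H2-DMb1 and H2-DMb2. The window searched was the 150 bases before the RefSeq start. For H2-DMb2, H2-Eb1 and H2-DMa it is printed 5′ to 3′ on the plus strand, up to the first base that GENCODE M21 annotates as an exon of the gene. Most of the H2-DMb1 window (119 bases) lies in such an exon, so it is not printed. Capitals mark GATGATGCT, the longest run shared by the H2-DMb1, H2-DMb2 and H2-Eb1 windows, in the place of the X box, and GATTGG or its complement CCAATC, the inverted CCAAT letters of the Y box.
H2-DMb2 (chr17:34145099-34145235): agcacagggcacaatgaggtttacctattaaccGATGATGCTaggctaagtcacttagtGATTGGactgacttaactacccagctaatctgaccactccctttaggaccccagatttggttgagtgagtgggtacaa
H2-Eb1 (chr17:34305717-34305866): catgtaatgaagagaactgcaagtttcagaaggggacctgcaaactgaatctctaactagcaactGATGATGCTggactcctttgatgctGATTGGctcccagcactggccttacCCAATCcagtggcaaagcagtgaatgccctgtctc
H2-DMa (chr17:34122682-34122821): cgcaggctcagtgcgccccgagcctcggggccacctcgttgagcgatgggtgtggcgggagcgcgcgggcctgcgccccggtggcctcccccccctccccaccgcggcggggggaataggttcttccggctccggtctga

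The capitals stand in H2-DMb2 and H2-Eb1, and likewise in the H2-DMb1 window, and not in the searched H2-DMa window. The H2-Aa window held GATTGG, 49 bases before the start, and not GATGATGCT. The first run begins 117 bases before the start in H2-DMb2, 88 in H2-DMb1 and 85 in H2-Eb1. In the H2-DMb2 and H2-DMb1 windows the GATTGG letters follow it after 17 bases. In the H2-Eb1 window GATTGG also follows it, at the spacing seen in the printed letters, and CCAATC follows after 41 bases. Both runs of the H2-DMb1 window lie past the first base annotated as an exon of that gene. On either strand, GATGATGCT occurred in 44 of 32851 promoter windows of the same length (0.134%), GATTGG in 10.9%, and both in 5 (0.0152%). Genes with both were H2-DMb1, H2-DMb2 and H2-Eb1, from whose windows the run was taken, and Gm31592 and Nrn1l. The run was thus bound to occur in the windows that defined it. It was chosen after reading the member windows, and a match is a description and not a measured binding site. H2-DMb2, which fell in Ikzf4-/- cultures, and H2-Eb1, which did not pass the test, both have these letters. H2-DMa has 2 RefSeq windows, and the first, which is printed, has neither run. The second was searched only for both runs together, which it did not hold. The printed window lies inside the span of the H2-DMa gene (34119541 to 34139101). Likewise, the printed H2-DMb2 window lies inside the span of its gene (34143307 to 34151555). Whether either run stands near another start of H2-DMa or H2-DMb2 was not tested.

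H2-Ab1 and H2-DMb2 were about 2-fold lower in Ikzf4-/- than in WT cultures, while Cd74 and H2-Eb1 were not called. H2-DMa and H2-DMb1 also had lower means in Ikzf4-/- cultures but missed the threshold. Of the 6 measured members, limma called 2 lower and 0 higher at an adjusted p-value under 0.05, over 14864 genes tested. In the same fit, 1.20% of all genes were called lower, 0.572% higher and 1.77% either way (178 and 85 genes, or 154 and 115 with libraries scaled to equal totals). At an unadjusted p under 0.05 there were 4 members, all lower, a threshold that 18.1% of all genes passed. The authors' deposited table called 3 members, all lower, where 3.89% of 12849 genes with an adjusted p were called lower and 6.34% either way. The median log2 fold change of the 6 was -0.56, against 0.0048 over all genes. WT and Ikzf4-/- values did not overlap for 4 members, all lower in Ikzf4-/- cultures, and such genes made up 23.1% of all genes tested, 12.2% in that direction.

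**Figure D1:**
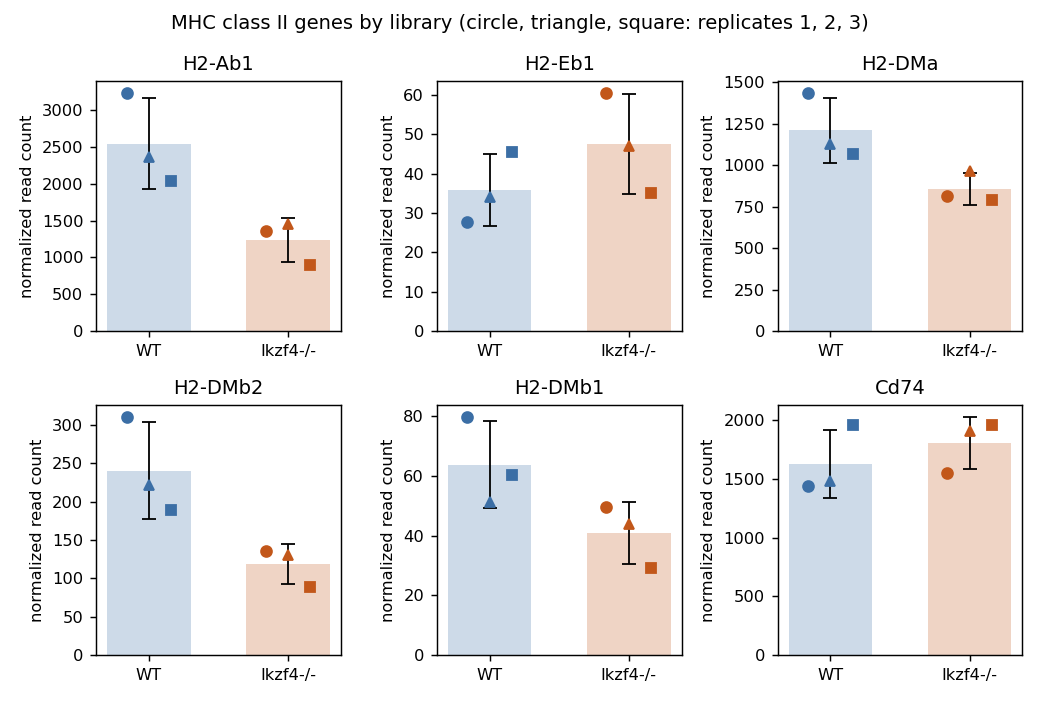
Normalized read count (vertical axes, from 0) of the 6 measured class II genes in 3 WT (blue) and 3 Ikzf4-/- (orange) libraries. Bars are means, error bars SD, and points libraries. The groups are apart for H2-Ab1, H2-DMa, H2-DMb2 and H2-DMb1 and overlap for H2-Eb1 and Cd74.

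H2-Ab1 encodes the beta chain of the A molecule, the class II molecule that C57BL/6 cells can display. The gene (ENSMUSG00000073421) lies at chromosome 17, 34257689 to 34269419, on the plus strand of GRCm38. WT replicates 1 to 3 held 3232, 2359 and 2039 normalized reads of it, against 1359, 1452 and 892 in Ikzf4-/- replicates 1 to 3. Every Ikzf4-/- library was below every WT library, WT replicate 1 was the highest and Ikzf4-/- replicate 3 the lowest. Its mean was 2543 ± 618 in WT and 1234 ± 300.0 in Ikzf4-/- cultures (SD, n = 3 each). On the log2(value + 1) scale it thus fell by 1.05 (SE 0.19; limma adjusted p = 0.0281). The call was lost without WT replicate 2 (limma adjusted p = 0.0615), without Ikzf4-/- replicate 1 (0.0630) or without Ikzf4-/- replicate 3 (0.0869), and it was kept without each of the other 3 libraries. Without WT replicate 1 the fitted change was -0.86 (limma adjusted p = 0.0160), and over the 6 such fits it ran from -1.19 to -0.83. The authors' deposited table gives H2-Ab1 a log2 fold change of -1.04 and an adjusted p of 0.00861.

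H2-Eb1, the beta chain of the E molecule, lies at 34305867 to 34316674 of the same chromosome and was scarce. WT libraries held 27.7, 34.1 and 45.6 normalized reads of it, and Ikzf4-/- libraries 60.5, 47.1 and 35.2. The groups overlapped, and the highest value was in Ikzf4-/- replicate 1. It was not called (log2 fold change 0.40, SE 0.30; limma adjusted p = 0.529). The libraries held only 26 to 60 estimated reads of the gene.

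The DM genes encode the peptide exchange factor. H2-DMa, its alpha chain (34119541 to 34139101 on chromosome 17), stood at 1435, 1128 and 1066 normalized reads in WT and at 817, 966 and 789.6 in Ikzf4-/- libraries. All 3 Ikzf4-/- values lay below the WT values, but the gene was not called (log2 fold change -0.49, SE 0.11; limma adjusted p = 0.0603). Leaving out WT replicate 3 gave a call (0.0314), as did the authors' deposited table (0.00120, at a log2 fold change of -0.50).

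H2-DMb2, one of the paired DM beta genes of the mouse (34143307 to 34151555), stood at 311, 221 and 189 normalized reads in WT and at 136, 131 and 88.4 in Ikzf4-/- libraries. Every Ikzf4-/- library was again below every WT library. Its mean was 240.4 ± 63.1 in WT and 118 ± 26.2 in Ikzf4-/- cultures (SD, n = 3 each), and it fell by 1.01 on the log2 scale (SE 0.22; limma adjusted p = 0.0474). This call lay close to the threshold: of the 6 fits that each left out 1 library, only that without WT replicate 3 called the gene (0.0262), and the others gave adjusted p-values from 0.0794 without WT replicate 1 (log2 fold change -0.81) to 0.157 without Ikzf4-/- replicate 3. The authors' deposited table gives an adjusted p of 0.000370.

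H2-DMb1, the other DM beta gene (34153072 to 34160230), stood at 79.8, 51.2 and 60.2 normalized reads in WT and at 49.4, 44.0 and 29.1 in Ikzf4-/- libraries. The groups were apart, although WT replicate 2 and Ikzf4-/- replicate 1 nearly met, and the gene was not called (log2 fold change -0.64, SE 0.28; limma adjusted p = 0.255). The DM beta genes are close copies. Of the 50-base windows of annotated H2-DMb1 transcripts, 22.7% also occurred in H2-DMb2, and 21.2% the other way round. How reads from such stretches were counted is not given in the sources used here, so the split between these genes is uncertain.

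Cd74, the invariant chain (ENSMUSG00000024610, chromosome 18), did not follow H2-Ab1. It stood at 1440, 1481 and 1962 normalized reads in WT and at 1549, 1912 and 1958 in Ikzf4-/- libraries. The groups overlapped, with means of 1628 ± 290.4 and 1806 ± 224 (SD, n = 3 each), and the gene was not called (log2 fold change 0.16, SE 0.12; limma adjusted p = 0.541). The ratio of H2-Ab1 to Cd74 in normalized reads was 2.24, 1.59 and 1.04 for WT replicates 1 to 3, against 0.877, 0.760 and 0.456 for Ikzf4-/- replicates 1 to 3. The mean log2 ratio differed by -1.20 between the genotypes, and 3 of 3 Ikzf4-/- libraries lay below 3 of 3 WT libraries. An exact two-sided permutation test gave p = 0.1, the smallest value that 3 libraries against 3 allow.

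Other ratios between members gave the same p-value in the same test. H2-Ab1 over H2-Eb1 ranged from 44.7 to 117 in WT and from 22.4 to 30.8 in Ikzf4-/- libraries. H2-Ab1 over H2-DMa was 1.91 to 2.25 in WT and 1.13 to 1.66 in Ikzf4-/- libraries. H2-DMb2 over H2-DMb1 was 3.15 to 4.32 in WT and 2.76 to 3.03 in Ikzf4-/- libraries. With H2-DMa over H2-DMb2 and H2-Ab1 over Cd74, 5 ratios were compared, each with an exact permutation p of 0.1 and a Benjamini-Hochberg adjusted p of 0.1, which no ratio in a design of this size can pass.

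**Figure D2:**
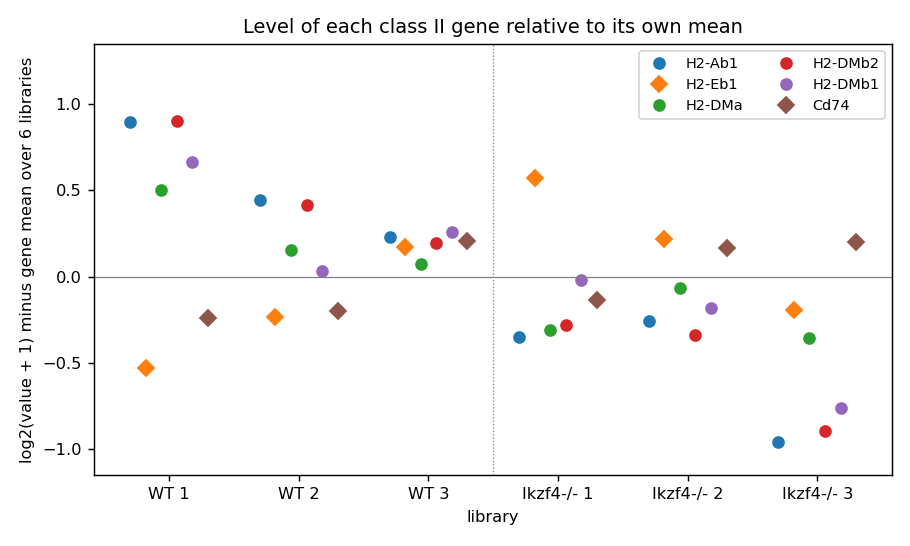
Level of each measured class II gene in each library as log2(value + 1) minus the gene's mean over the 6 libraries. Circles are H2-Ab1 and the DM genes and diamonds are H2-Eb1 and Cd74. In WT replicate 1 the 4 circles lie above 0 and the diamonds below, and in Ikzf4-/- replicate 3 H2-Ab1 and H2-DMb2 are lowest.

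H2-Ab1 and the DM genes varied together from library to library, and not only between genotypes. Across the 6 libraries, on the log2(value + 1) scale, the Pearson correlation of H2-Ab1 was 0.996 with H2-DMb2, 0.957 with H2-DMa and 0.932 with H2-DMb1. After the mean of each genotype was removed these values were 0.985, 0.849 and 0.872. With Cd74 the correlation was -0.64 before and -0.63 after that step, and with H2-Eb1 it was -0.47 and 0.0226. These correlations are descriptions over 6 libraries that share the same normalization, and WT replicate 1 and Ikzf4-/- replicate 3 supply most of their range.

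Per kilobase of exon, a scale on which genes can be compared, the level averaged over the 6 libraries was highest for Cd74 and lowest for H2-Eb1. The order at both ends differed between genotypes: in WT cultures the mean of H2-Ab1 (990.3) was above that of Cd74 (969.5), and in Ikzf4-/- cultures that of H2-DMb1 (24.3) was below that of H2-Eb1 (24.5), differences within the SD of these means. Cd74 had 1023 normalized reads per kb, H2-Ab1 736, H2-DMa 299.8, H2-DMb2 103, H2-DMb1 31.1 and H2-Eb1 21.5. Ranges over libraries of Cd74 (858 to 1169) and H2-Ab1 (347 to 1259) overlapped, as did those of H2-Ab1 and H2-DMa and those of H2-DMb1 and H2-Eb1. H2-DMa and H2-DMb2 did not overlap, nor did H2-DMb2 (50.6 to 178) and H2-DMb1 (17.3 to 47.5). By this measure Cd74 stood above 85.8% and H2-Ab1 above 80.6% of 14832 tested genes with a length, while H2-Eb1 stood above 20.6%. H2-Ab1 exceeded Cd74 per kb in WT replicates 1 and 2 and was below it in the other 4 libraries.

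The markers of cells that make class II in quantity were mostly low, and their summed levels overlapped between the genotypes. Of 21 B cell markers, 10 had a row, and Ms4a1, Pax5 and Cd22 were among the 11 that had none and were not analysed here. None of the markers with a row was called by limma, with 2 at an unadjusted p under 0.05 (18.1% over all genes) and 0 called in the authors' deposited table. Cd79a, a chain of the B cell receptor complex, was at 17.03, 49.4 and 26.2 normalized reads in WT and at 31.3, 34.5 and 51.2 in Ikzf4-/- libraries. In WT replicate 1, where H2-Ab1 was highest, Cd79a was lowest, while Fcmr, the receptor for the Fc part of IgM, was highest (128 normalized reads, against 20.1 to 43.7 in the other libraries). Cd79b, the partner chain, was at 24.1 to 54.5 and the B lineage factor Ebf1 at 6.05 to 16.8 over all libraries. Values did not overlap between genotypes for Spib and Ighm, named after they were seen, as for 23.1% of all genes. Spib was at 9.58, 11.7 and 17.5 in WT and at 30.3, 20.9 and 39.2 in Ikzf4-/- libraries (limma adjusted p = 0.139). Ighm was lower in Ikzf4-/- cultures (log2 fold change -0.076). The summed level of the list was 1978 to 2216 in WT and 2013 to 2132 in Ikzf4-/- libraries. Most of that came from Ighm and Btk. The other 8 markers, a split made after their values were seen, summed to 210 to 260 in WT and 178 to 229 in Ikzf4-/- libraries, with the highest sum in WT replicate 1.

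Most markers of dendritic cells and macrophages with a row were also low, apart from Cd83 and, in some libraries, Ccl22. Of 14 dendritic cell markers 7 had a row, with none called by limma, 2 at an unadjusted p under 0.05 and 1 (Cd83) called higher in the authors' deposited table. Flt3, Xcr1 and Clec9a had no row. The integrin Itgax was at 6.03 to 13.6 normalized reads and Zbtb46, a factor of conventional dendritic cells, at 73.5 to 125. Fscn1, named after its values were seen, did not overlap between genotypes, as did 23.1% of all genes. It was at 39.4, 40.4 and 59.2 in WT and at 30.3, 29.3 and 21.1 in Ikzf4-/- libraries (limma adjusted p = 0.197). The list summed to 3224 to 5052 in WT and 4466 to 5191 in Ikzf4-/- libraries, most of it Cd83, which activated lymphocytes also make. Without Cd83 the sums were 172 to 642 and 230 to 370. Ccl22, named after its values were seen, held much of these sums in some libraries. It was at 27.7, 253 and 455 in WT and at 44.4, 56.5 and 182 in Ikzf4-/- libraries (limma adjusted p = 0.614). Of 17 macrophage and monocyte markers 5 had a row, with none called by limma, 0 at an unadjusted p under 0.05 and 0 called in the authors' deposited table. Their sum was 135 to 206 in WT and 149 to 160 in Ikzf4-/- libraries, and Lyz2, Csf1r and Adgre1 had no row.

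Granulocyte markers, with 2 of 8 rows, summed to 282 to 450 in WT and 214 to 309 in Ikzf4-/- libraries, nearly all of it Gata1. Limma called 0 of them, with 1 at an unadjusted p under 0.05 and 0 called in the authors' deposited table. CD8 and natural killer cell markers, with 4 of 6 rows, summed to 402 to 707 and 443 to 694, with 0 called by limma, 0 at an unadjusted p under 0.05 and 0 called in the authors' deposited table. No marker with a row in the B cell, dendritic cell or macrophage lists was at 0 in any library. The ranges of the summed levels overlapped between genotypes for each list, and the part of such cells in the class II values was not tested. In a bulk sample, fewer cells of a type and less RNA per cell cannot be told apart.

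**Figure D3:**
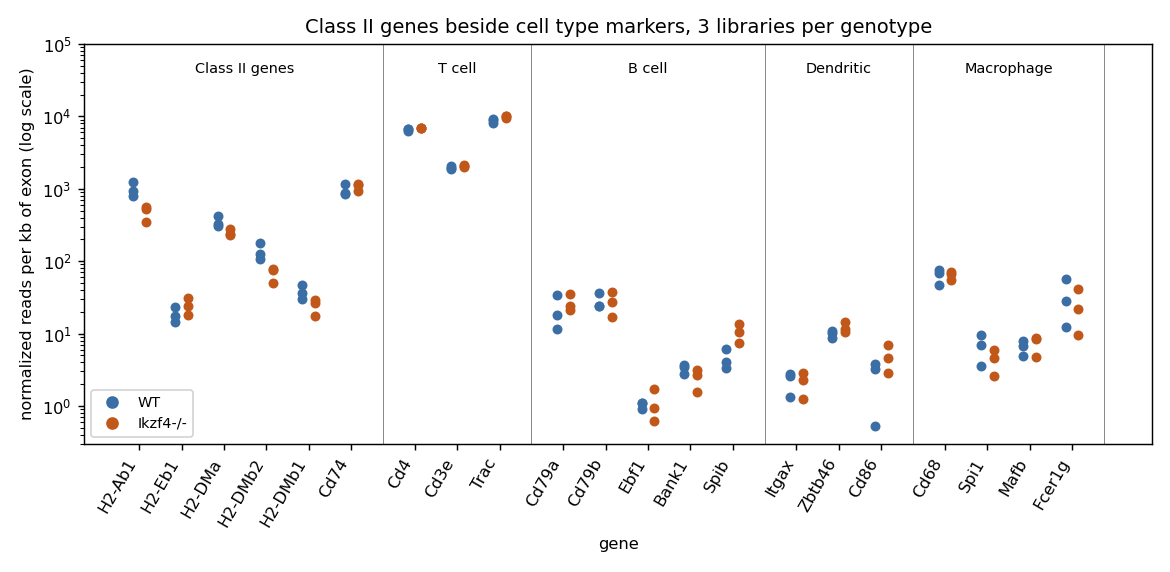
Normalized reads per kb of exon (log axis) of the measured class II genes and of markers of T cells, B cells, dendritic cells and macrophages, 3 WT (blue) and 3 Ikzf4-/- (orange) libraries each. H2-Ab1 and Cd74 lie between the 3 plotted T cell markers, which are higher, and the plotted markers of other cells, which lie lower in every library. Cd83, Ccl22, Ighm and Btk are among the markers not plotted.

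Of 17 T cell markers 16 had a row, and Bcl11b, which had none, was not analysed here. Among the 16, limma called 1 lower and 1 higher in Ikzf4-/- cultures, against 1.20% and 0.572% of all genes. These were Cd2 (log2 fold change -0.41, limma adjusted p = 0.0258) and Cd5 (0.33, 0.0306). At an unadjusted p under 0.05 there were 7, against 18.1% of all genes. The authors' deposited table called 2 lower and 2 higher, against 6.34% of its genes either way. The summed level of the T cell markers was 205542 to 206389 in WT and 201934 to 206759 in Ikzf4-/- libraries. Averaged over the 6 libraries, these markers ran from 1050 (Cd28) to 29358 (Trbc2) normalized reads per kb, and Cd74 (1023) lay just under the lowest of them. Among markers of other cells, Cd83 (1617) was above Cd74 and Ighm (693) somewhat below H2-Ab1, while Cd79a (24.0), Cd79b (27.8) and Itgax (2.19) were far lower.

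Further genes of the pathway showed where differences did and did not pass the test. Of the other class II chains, H2-Oa and H2-Ob, whose DO dimer restrains DM, were at 34.2 to 57.6 and 25.1 to 52.3 normalized reads over the 6 libraries. Neither was called (limma adjusted p = 0.884 and 1.00), with log2 fold changes of -0.10 (SE 0.26) and 0.0014 (SE 0.33), whose signs changed under some alternatives. H2-Ea and H2-Eb2 had no row.

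All 12 factors of the shared promoter or its coactivators had a row. None was called by limma, with 2 at an unadjusted p under 0.05 (18.1% over all genes) and 0 called in the authors' deposited table, and their log2 fold changes ran from -0.14 (Rfxap) to 0.17 (Crebbp). The RFX subunit Rfx5 was at 609 ± 15.02 in WT and 632 ± 26.8 in Ikzf4-/- cultures (SD, n = 3 each). Of 13 measured genes of endosomal processing, limma called 0, with 3 at an unadjusted p under 0.05 and 2 called lower in the authors' deposited table. The cysteine protease Ctsl, which can degrade invariant chain, was at 2726, 2233 and 2158 normalized reads in WT and at 1612, 1982 and 1375 in Ikzf4-/- libraries. The groups did not overlap, and it missed the threshold (log2 fold change -0.53, SE 0.12; limma adjusted p = 0.0602, and 0.000390 in the authors' deposited table). Ctss, the main invariant chain protease of B cells and dendritic cells, was at 959 ± 80.7 in WT and 1044 ± 48.1 in Ikzf4-/- cultures (SD, n = 3 each; limma adjusted p = 0.446).

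Of 10 genes of the interferon gamma and IL-4 signals that reach CIITA and the class II genes in other cells, limma called 2 lower and 0 higher, against 1.20% and 0.572% of all genes. Socs1, a feedback inhibitor of both signals, fell by 0.37 on the log2 scale, with means of 6210 ± 201 and 4816 ± 569.6 (SD, n = 3 each; limma adjusted p = 0.0375). Il4ra, the IL-4 receptor chain that activates STAT6, was at 19694, 12253 and 11002 normalized reads in WT and 9169, 7333 and 7467 in Ikzf4-/- libraries and fell by 0.80 on the log2 scale (limma adjusted p = 0.0476). WT replicate 1 stood out here as it did for H2-Ab1. Neither gene was called without WT replicate 2, without Ikzf4-/- replicate 1 or without Ikzf4-/- replicate 2. Socs1 was also not called without WT replicate 3 (limma adjusted p = 0.0522), nor Il4ra without Ikzf4-/- replicate 3 (0.164) or in the authors' deposited table (0.0600). Prdm1, which encodes a repressor of Ciita in plasma cells, was at 89.9 ± 15.7 in WT and 41.6 ± 12.1 in Ikzf4-/- cultures (SD, n = 3 each; limma adjusted p = 0.0588). The authors' deposited table called it lower (adjusted p = 0.0102).

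**Figure D4:**
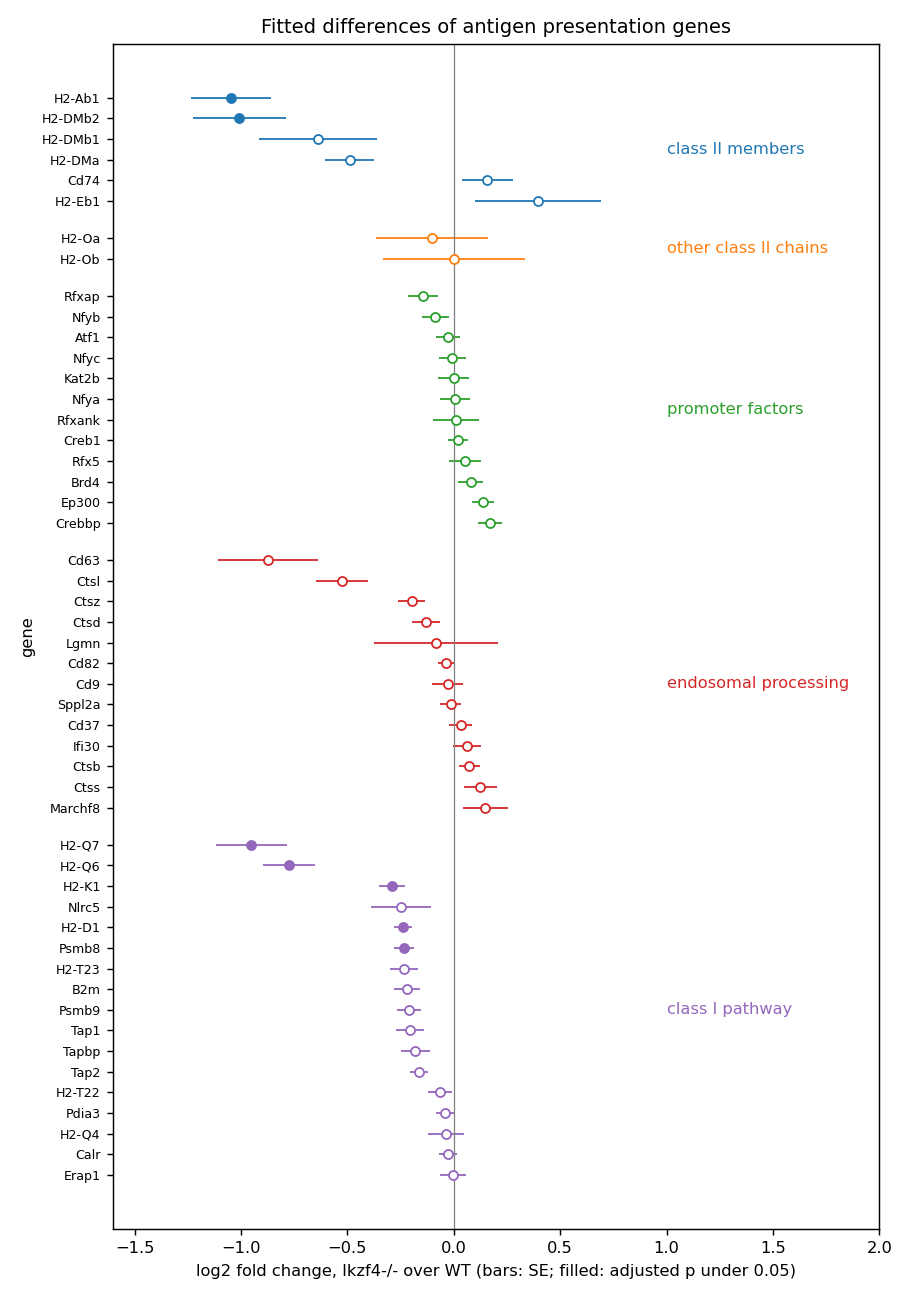
Log2 fold change of Ikzf4-/- over WT (horizontal axis, bars SE) for each measured gene of the class II set, the other class II chains, the promoter factors, endosomal processing and the class I pathway. Filled points passed an adjusted p under 0.05. H2-Ab1 and H2-DMb2 lie near -1, and the promoter factors lie between -0.14 and 0.17.

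The MHC class I pathway was examined in the same libraries for comparison. Of its 17 measured genes limma called 5 lower and 0 higher, against 1.20% of all genes lower and 0.572% higher, and 11 had an unadjusted p under 0.05. Their median log2 fold change was -0.21. All 17 fitted values were below 0, against 16 when libraries were scaled to equal totals and 15 with quantile normalization. The restriction elements H2-K1 and H2-D1 fell by 0.29 and 0.24 on the log2 scale (limma adjusted p = 0.0450 and 0.0249). The means were 30877 ± 2242 and 25249 ± 1524 for H2-K1, and 27713 ± 622 and 23472 ± 347 for H2-D1, in WT and Ikzf4-/- cultures (SD, n = 3 each). H2-Q7 and H2-Q6 had log2 fold changes of -0.95 and -0.77 (0.0258 and 0.0205). Of the 50-base windows of H2-Q6 transcripts, 13.9% also occurred in H2-Q7, so those values are uncertain. The immunoproteasome subunit Psmb8 fell by 0.24 on the log2 scale (0.0372). Nlrc5, the class I counterpart of CIITA, was not called (log2 fold change -0.25; limma adjusted p = 0.392). The number of class I genes called by limma was 0 without WT replicate 2 and 0 without Ikzf4-/- replicate 3. In these fits 10 and 12 had an unadjusted p under 0.05, which 15.9% and 13.8% of all genes passed. The number was 1 without Ikzf4-/- replicate 1 and 1 without Ikzf4-/- replicate 2, where 48 and 112 genes were called in all. It was 6 without WT replicate 1 and 7 without WT replicate 3, where 269 and 523 genes were called in all. The authors' deposited table called 9 of the 17 lower and 0 higher, where 3.89% of its genes were called lower. The fitted changes of H2-Ab1 (-1.05) and H2-DMb2 (-1.01) were larger than those of H2-K1 and H2-D1, a difference that was not tested. Those of H2-Q7 (-0.95) and H2-Q6 (-0.77) lay nearer to the class II values.

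Of the measured class II genes, 5 lie on chromosome 17, between 34119541 and 34316674 of GRCm38. That stretch held 12 tested genes, of which 7 were not members, and of these 1 (Psmb8) was called. Their median log2 fold change was -0.16. Between the DM genes and H2-Ab1 lie Tap1, Tap2, Psmb8 and Psmb9 of the class I pathway, with log2 fold changes of -0.21, -0.16, -0.24 and -0.21, the noncoding genes Gm20496 and Gm15821, and H2-Ob. Gm20496 and Gm15821 are antisense to class I genes, and the use of strand in counting is not given in the sources used here. H2-Ob, whose fitted value was near 0, directly precedes H2-Ab1 among the tested genes, and H2-Eb1 follows it. The 7 other genes had fitted values from -0.24 to 0.28, against -1.01 for H2-DMb2 and -1.05 for H2-Ab1.

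**Figure D5:**
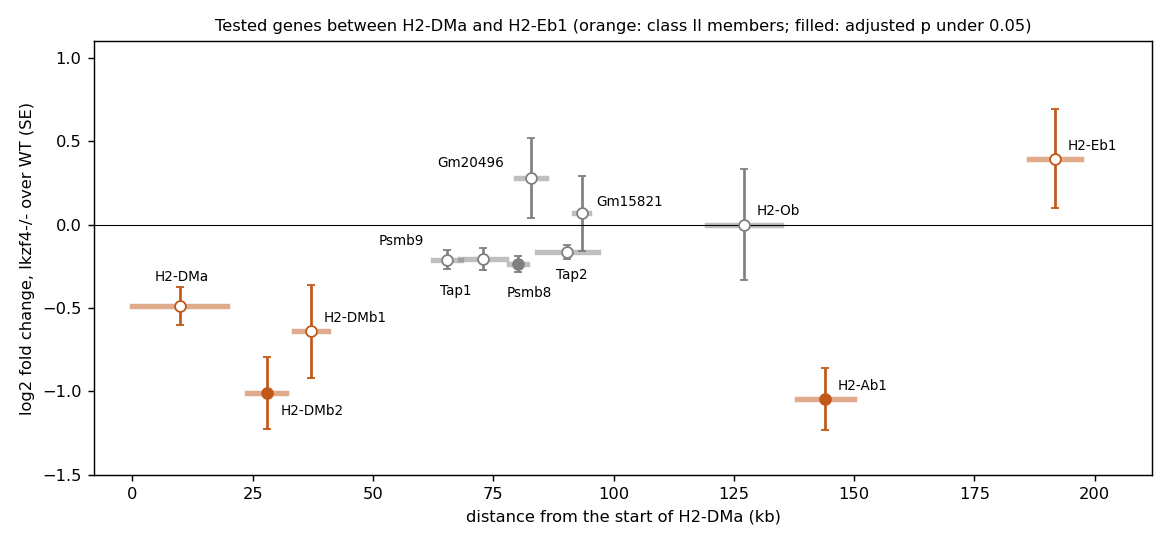
Log2 fold change of Ikzf4-/- over WT (vertical axis, error bars SE) of the 12 tested genes from H2-DMa to H2-Eb1, by distance from the start of H2-DMa in kb. Horizontal bars span each gene, orange marks class II members and filled points passed an adjusted p under 0.05. H2-DMb2 and H2-Ab1 lie near -1 and the class I genes between them near -0.2.

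Genes with a pattern like that of the class II genes were sought among 1182 other genes whose mean was 50 or more and whose SD over libraries was 0.3 or more on the log2 scale. The reference was the mean of H2-Ab1, H2-Eb1 and Cd74, since H2-Aa had no row. The 10 most alike included Kif5a, Samd14, Chdh, Gm15706, 2410004P03Rik, Trbj1-2, Spock2, Tjp3 and 1700066B19Rik, and the 10 had Pearson correlations from 0.882 to 0.964 over 6 libraries. None of the 10 was called, with limma adjusted p-values from 0.152 to 0.835. Because the 3 reference genes did not move together, the same search was made with H2-Ab1 alone, a choice made after its values were seen. Anxa2, the calcium-dependent membrane-binding protein annexin A2, was most alike (correlation 0.999), followed by Pygl, the liver form of glycogen phosphorylase (0.992), and Bend5, Aldoc, Anxa4, Celf4, Car5b, Pafah1b3, Pcsk1n and Akap7 (0.981 to 0.989). Of these 10, limma called Anxa2, Pygl and Pafah1b3, against 1.77% of all genes. Their fitted changes ran from -1.78 (Pygl) to -0.54 (Akap7). Likeness to H2-Ab1, itself called lower, selects genes that fall, so these directions and calls follow from the choice and are descriptions only. Anxa2 fell by 0.98 on the log2 scale, with means of 10774 ± 2366 in WT and 5496 ± 1295 in Ikzf4-/- cultures (SD, n = 3 each; limma adjusted p = 0.0281).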

How the data were processed

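The deposited table holds 1 column per library of a never-negative signal, read as normalized read counts, since 100.0% of values lay within 0.01 of a whole multiple of 1 step per library. The submitters' processing notes name Trimmomatic 0.36, STAR 2.5.2b, DESeq2 and the builds GRCm38 and mm10 as used by the authors, without their roles. The counting tool, its use of strand and the annotation are not given in the sources used here. The authors' log2 fold changes and p-values stand in the same deposited table, where 2019 genes have no adjusted p-value. Of 14868 genes, the 14864 with a mean of at least 10 were fitted with limma 3.58.1 in R 4.3.3 on log2(value + 1), with genotype as the only term and a variance trend. Two-sided p-values were corrected by the Benjamini-Hochberg method over the genes fitted, and genes under 0.05 counted as called. The scale understates changes of low genes. The procedure was tested on simulated data. No count test was run, because in 2 columns that step lay too near 1 for the rule used to accept reads as recovered. Depth is the sum of values divided by each step.

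Exon lengths and positions came from GENCODE M21 (GRCm38), matched by Ensembl identifier, and promoters from RefSeq. Members and lists were chosen with earlier results of these data known. Named were the 8 members, Ikzf4, called or abundant or defining members of the lists, and the 10 genes most alike in pattern. Any other choice made after values were seen is said to be. Some genes of the lists and rankings are not reported here. Alternatives were other filters, pseudocounts and scalings, a replicate block, leaving out each library, and the authors' calls.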

Additional observations from a re-analysis of the deposited data

How the results depend on the processing

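All 6 measured class II genes kept the direction of their fitted change under every alternative run, and H2-Ab1 and H2-DMb2 kept their calls under the other filters, pseudocounts of 0.1 and 10, quantile normalization, equal library totals, the replicate block and the authors' deposited table. The calls were not stable when single libraries were left out, which also made a group smaller. Leaving out 1 library at a time gave 0 to 3 class II genes called lower, against 2, and 0 called higher throughout. Median log2 fold changes of the members ran from -0.66 to -0.41, and 20 to 523 genes were called in all, against 263. H2-Ab1 lost its call at larger fitted falls without WT replicate 2 (-1.09) or Ikzf4-/- replicate 1 (-1.13). Without Ikzf4-/- replicate 3 it lost the call at a smaller fall (-0.83). The part of group size in the lost calls was not tested. No class II gene was called by limma without WT replicate 2, Ikzf4-/- replicate 1 or Ikzf4-/- replicate 3, where 4, 4 and 3 had an unadjusted p under 0.05, as had 15.9%, 15.9% and 13.8% of all genes. Without WT replicate 1, which stood apart for H2-Ab1, 1 class II gene was called. The replicate block gave 754 genes called and 3 class II genes (H2-DMa, adjusted p = 0.0268), and the authors' calls 815 genes and 3 class II genes. The block also called Ctsl (0.0181), but deviations of same-numbered libraries correlated by only 0.145, 0.0122 and 0.142, so the numbers were not taken as a pairing. Equal library totals took the higher genes from 32.3% to 42.8% of those called, with a median shift over all genes to 0.03 on the log2 scale. H2-Ob changed sign with quantile normalization (-0.0068) and ran from -0.22 to 0.30 without 1 library, and H2-Oa from -0.29 to 0.082. The cause was not tested. An edgeR fit was planned only for raw counts. Neither it nor a DESeq2 fit was run, since the steps of 2 columns lay too near 1. H2-Eb1 and H2-DMb1 had at most 75 estimated reads in any library, and the part of depth in their missing calls was not tested.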
